A study of Mus musculus with 18 samples.

Results

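Cytochalasin D (CytoD), a fungal toxin that caps the fast-growing ends of actin filaments, was given to mouse marrow-derived mesenchymal stem cells (MSCs), and the RNA of the treated cells was compared with that of untreated cells of the same experiment. The samples were taken by their labels, which gave 6 of the 18 RNA-seq libraries of the series, 3 of CytoD and 3 of control. All 6 came from male C57BL/6J mice and carry neither a transgene nor an siRNA in their labels, and the control cells are labelled as given no treatment, so a solvent control is not named. Another group of the experiment, 3 libraries of cells with CK666, which blocks the Arp2/3 complex and so the branching of filaments, entered the fit and is used here where both drugs are set side by side. The methods describe 1 line of cells made from the marrow of several mice and distinct preparations for each condition, read after a day of drug, so the p-values below measure only the spread between preparations of that line. The labels give no dose for either drug.

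Actin monomers hold the coactivator MRTF away from its partner SRF, the factor that drives the genes of actins and contractile proteins, while stretched filaments favour the coactivators YAP and TAZ, which act on genes of the CCN family through TEAD factors. Cytochalasin D is known to release MRTF from monomers while it breaks filaments down, and in MSCs the state of the filaments is known to bear on the choice between fat and bone. MSCs are adherent stromal cells of the marrow that can become adipocytes, osteoblasts or chondrocytes and that feed blood-forming cells with secreted factors.

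Markers of the labelled cell type were present. Transcripts of Pdgfrb, a receptor of stromal cells, stood at 7359, 7835 and 7605 normalized counts (counts divided by a size factor per library) in control and 8198, 8421 and 8209 in CytoD. The sum over 9 MSC markers ran from 80966 to 85368 in control and from 79964 to 85938 in CytoD, with Col1a1 the largest part of it, Thy1 at 0 in all 6 libraries and Cd44 the 1 member called. Pdgfra, Vcam1 and Prrx1 were higher at an adjusted p below 0.01 and under the fold change minimum, at log2 changes of 0.59, 0.96 and 0.38. Ptprc, which marks all white blood cells, and Adgre1, which marks macrophages, were at 0 in all 6. The 5 macrophage markers together summed to 150.0 to 204.1 in control and 277.4 to 289.5 in CytoD, with Cd68 higher and Csf1r not called. The calls of Lyz2 (higher) and Mrc1 (lower) were lost whichever library was left out (log2 changes of 0.86 to 1.21 and of -1.56 to -1.34). The 4 endothelial markers summed to at most 10.7 in any of the 6 libraries. Library totals ran from 18075621 (CytoD replicate 1) to 21449103 (control replicate 1), mitochondrial genes took 1.43% to 1.89% of the counts, and between 12787 and 13189 genes reached a count of 10.

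CytoD raised 659 genes and lowered 592 of the 13717 that were tested. Together these were 9.12% of the genes tested, with 4.8% called higher and 4.32% called lower. A gene was called where its log2 fold change was over 1 in size and its adjusted p was below 0.01 (DESeq2 Wald test, Benjamini-Hochberg adjustment over all tested genes, two-sided). The median log2 fold change of the 12948 expressed genes (10 or more normalized counts on average across the 6 libraries) was 0.00, and 9.47% of them were called (4.94% higher, 4.53% lower). Whatever the size of the change, 4067 of the 13717 tested genes had an adjusted p below 0.01 (1871 higher, 2196 lower). List counts by that rule are to be read beside these. The share of all genes at an unadjusted p below 0.05 is not given here, so list counts at that level have no background to be read against. The median control count was 74.5 for the genes that rose, 841 for those that fell and 561.5 for all expressed genes. Control counts enter the fold change that made the calls, so this gap is not independent of the call rule. Rises also reached farther, with 154 genes called at a log2 fold change over 2 and 59 called below -2. Of the 1251 called genes 1246 had groups that did not overlap, which held for 60.96% of all expressed genes. In bulk RNA a loss of cells of one kind and a loss of RNA in each cell cannot be told apart.

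**Figure D1:**
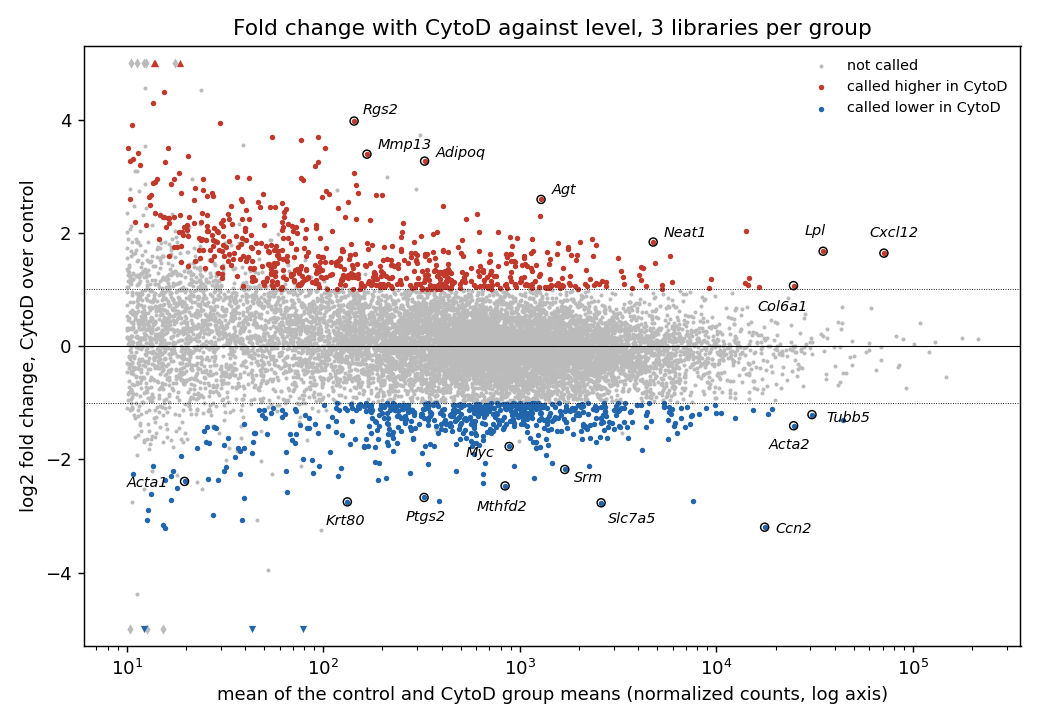
Each point is 1 of the expressed genes, with the mean of the control and CytoD group means in normalized counts on a log axis and the log2 fold change of CytoD over control on the other axis. Red and blue points are the genes called higher and lower, dotted lines mark a log2 fold change of 1 in either direction, and the 14 genes beyond a log2 fold change of 5 are drawn at the edges. Among called genes with a mean of at least 1000, Ccn2 lies lowest and Agt highest.

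CytoD acts on actin, and SRF drives actin genes. Acta2 (chr19:34241090-34255590, minus strand), the smooth muscle actin of contractile fibroblasts, stood at 37018, 34536 and 36037 in control and 13178, 13267 and 14127 in CytoD. The CytoD libraries lay far below control without overlap, at 0.377 of the control level (log2 change -1.41, SE 0.13, adjusted p 8.58e-26). Actg2, the other smooth muscle actin, fell from 3872 ± 368 (SD, n = 3) to 1643 ± 43.3 (adjusted p 9.33e-31). Acta1, the skeletal actin, was low throughout, at 29.99, 33.1 and 36.2 in control and 3.19, 14.5 and 1.03 in CytoD, and fell by 2.39 in log2 units (adjusted p 0.00436), a call that edgeR's quasi-likelihood test did not make among its 2 calls for the actins and that was lost without any 1 of the libraries other than CytoD replicate 2 (-2.46 to -1.89). The cytoplasmic actins Actb and Actg1, which build the filaments of every cell, reached 55236 ± 2376 against 73685 ± 3694 and 74898 ± 3180.4 against 94107 ± 6635. Their changes of -0.42 and -0.33 on the log2 scale had adjusted p of 3.84e-05 and 0.00311 but were under the fold change minimum. So 3 of the 5 expressed actins fell, and the median of the 5 was -1.24.

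Of the 25 targets of SRF and MRTF, 5 fell and the other 20 were not called. Of all 25, 19 were lower at an adjusted p below 0.01 whatever the size of the change, and the median was -0.68 (all expressed genes 0.00). Myl9, the regulatory light chain of non-muscle myosin, stood at 1770.2, 1810.3 and 1785 in control and 497, 613 and 546 in CytoD. All CytoD libraries lay far below all control libraries, and the log2 fold change was -1.70 (SE 0.19, adjusted p 2.84e-17). Fhl1, a LIM protein of muscle and fibroblasts, fell by 1.63 (adjusted p 2.18e-15), and Tagln2, an actin-binding protein, fell from 10548 ± 263 to 4075 ± 175 (adjusted p 3.25e-35). Tagln, the smooth muscle protein SM22, fell to 0.361 of control (adjusted p 7.30e-11), and its span overlaps Pcsk7 on the other strand. Overlaps given here are of gene spans. Overlap of exons was not checked, and unstranded libraries cannot separate reads from exons shared by both strands. Srf itself stood at 2012, 1918 and 1962 against 845, 1108 and 944. It fell by 1.02 (adjusted p 9.12e-14), just past the fold change minimum, and the call was lost without CytoD replicate 1 (-0.94). Vcl, the adhesion protein vinculin, moved by -0.81 (adjusted p 8.01e-06) and was not called. Mylk, the kinase of myosin light chains, was the 1 member with a higher level at an adjusted p below 0.01, at 0.71 on the log2 scale and also uncalled.

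The promoters of 22 of the 25 SRF and MRTF targets (88.0%) were found by symbol in RefSeq (build GRCm38.p6, 250 bases before to 50 after the start). A CArG box, the site bound by SRF and searched on both strands, was present in 6 of the 22 (Srf, Vcl, Cnn2, Myl9, Fhl1 and Fhl2), against 1.63% of all 32851 promoters of the table. Of these, Vcl, Cnn2 and Fhl2 were not called, and a box was also found in the actin genes Actg1 and Actc1, likewise not called. Stretches from 3 of the genes that fell and hold a box are shown as examples, with the box in capitals, 5′ to 3′ on the strand of the gene. Acta1 is from the actin list and was not among the 22. Acta1 is read from chr8:123894809-123894878 (minus strand), Srf with a pair of boxes from chr17:46556185-46556274 (minus strand) and Myl9 from chr2:156775273-156775342 (plus strand).
Acta1: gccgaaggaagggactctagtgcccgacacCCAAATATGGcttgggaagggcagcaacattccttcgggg
Srf: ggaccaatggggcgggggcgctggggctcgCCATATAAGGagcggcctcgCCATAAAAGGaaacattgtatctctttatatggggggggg
Myl9: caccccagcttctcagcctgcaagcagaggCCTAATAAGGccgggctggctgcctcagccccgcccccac
The box begins 73 bases before the start in Acta1, 82 in Srf and 161 in Myl9. A match of letters is a description of these promoters and does not show that SRF was bound.

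Of 19 expressed targets of YAP and TEAD, 2 fell, 1 rose and the median was -0.38. Both that fell are secreted CCN proteins of the matrix. Ccn2, also called CTGF, stood at 32102, 30303 and 32718 in control and 3355, 3428 and 3584 in CytoD (0.109 of control, adjusted p 1.16e-237). Ccn1, or CYR61, stood at 8654, 8231 and 8958 in control and 2827, 2655 and 2856 in CytoD. No CytoD library came near the control range, and the log2 fold change was -1.63 (SE 0.11, adjusted p 8.94e-49). Gadd45a, a stress-induced regulator of growth arrest, rose 2.46-fold (adjusted p 5.88e-11). Ankrd1, a commonly read target of YAP, reached at most 1 count in any of the 6 libraries. The TEAD site GGAATG, searched on both strands, lay 103 bases before the start of Ccn1, and 14.7% of all promoters of the table hold it. The stretch at chr3:145650053-145650118 (minus strand) is shown with the site, here as its reverse complement, in capitals.
Ccn1: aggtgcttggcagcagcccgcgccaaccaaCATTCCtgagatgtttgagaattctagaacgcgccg

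None of the 10 expressed subunits of the Arp2/3 complex was called by DESeq2 or edgeR, 6 had an unadjusted p below 0.05 (3 higher and 3 lower), and their log2 fold changes ran from -0.23 (Arpc2) to 0.88 (Actr3b). Among 20 binding, capping and transport proteins of actin monomers the call was 0 by both tools, 14 had an unadjusted p below 0.05 (4 higher, 10 lower), and the median was -0.23. Of 11 formins, which nucleate unbranched filaments, Diaph3 and Fhod3 fell and Daam2 rose, 27.3% called beside 9.47% of all expressed genes. Diaph3, which is needed for the cleavage furrow, stood at 3772, 3681 and 3789 in control and 1719.6, 1609 and 1753 in CytoD (log2 change -1.15, adjusted p 6.86e-15), while its relative Diaph1 was at -0.14 (adjusted p 0.215). Daam2, a formin tied to Wnt signalling, rose 2.22-fold (adjusted p 1.49e-04). Fhod3 fell to 0.291 of control (adjusted p 2.56e-13) and overlaps Tpgs2 on the other strand.

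A few genes of adhesion and of small GTPases were called. Of 27 expressed integrins and focal adhesion genes 1 rose and 1 fell, 7.41% called beside 9.47% of all expressed genes. Itgav, the alpha-v chain of receptors for fibronectin and vitronectin, stood at 10419, 10358 and 10278 in control and 4465, 4158 and 4627 in CytoD. The control libraries lay within a narrow band and the CytoD libraries at 0.427 of it (log2 change -1.23, SE 0.16, adjusted p 6.11e-14). Itga1, a collagen receptor of low level, rose from 28.2 ± 9.25 to 76.4 ± 10.4 (adjusted p 5.37e-04), a call lost without control replicate 2 (1.19 on the log2 scale) or CytoD replicate 1 (1.36), and it overlaps Pelo on the same strand. Itgb1, the shared beta chain, was at -0.66 (adjusted p 2.35e-25), under the fold change minimum. Of 26 small GTPases of the cytoskeleton and their regulators, Rnd1 and Arhgap11a fell and Rac3 rose. Rnd1, a GTPase that loosens stress fibers, fell from 197 ± 14.2 to 40.1 ± 5.48 (log2 change -2.30, adjusted p 2.50e-23), and Rhoa and Rhob were at -0.22 and -0.55 with no call.

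Tubulins, the subunits of microtubules, were lower throughout. All 10 expressed members had an adjusted p below 0.01 and a lower level, 4 of them were called, and the median was -0.86. Tubb5 stood at 43655, 41483 and 43094 in control and 18073, 18379 and 18971 in CytoD. The groups were far apart for this abundant beta tubulin, with a log2 change of -1.21 (adjusted p 1.16e-51). Tuba1b fell from 62755 ± 5265 to 25454 ± 1515 (adjusted p 2.02e-27), and Tubb2b and Tubb6 fell to 0.305 and 0.370 of control. Tubb3, of nerve cells, was below the level of the expressed genes and fell from 14.5, 12.7 and 29.0 to 0, 2.90 and 0 (adjusted p 0.00129), a call lost without CytoD replicate 1 or 3 (adjusted p 0.011 and 0.0112), and with no adjusted p without control replicate 2 or 3. Tubulins share long stretches of sequence, so reads may have been split between members by the quantification. Of 14 lamins and nuclear envelope genes, Lmnb1, Lmnb2 and Tmpo fell by 1.08, 1.16 and 1.06 (adjusted p 1.55e-39, 7.68e-23 and 2.02e-26), and Lmna, which encodes the A-type lamins of stiff nuclei, was at -0.36 (adjusted p 0.0104).

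**Figure D2:**
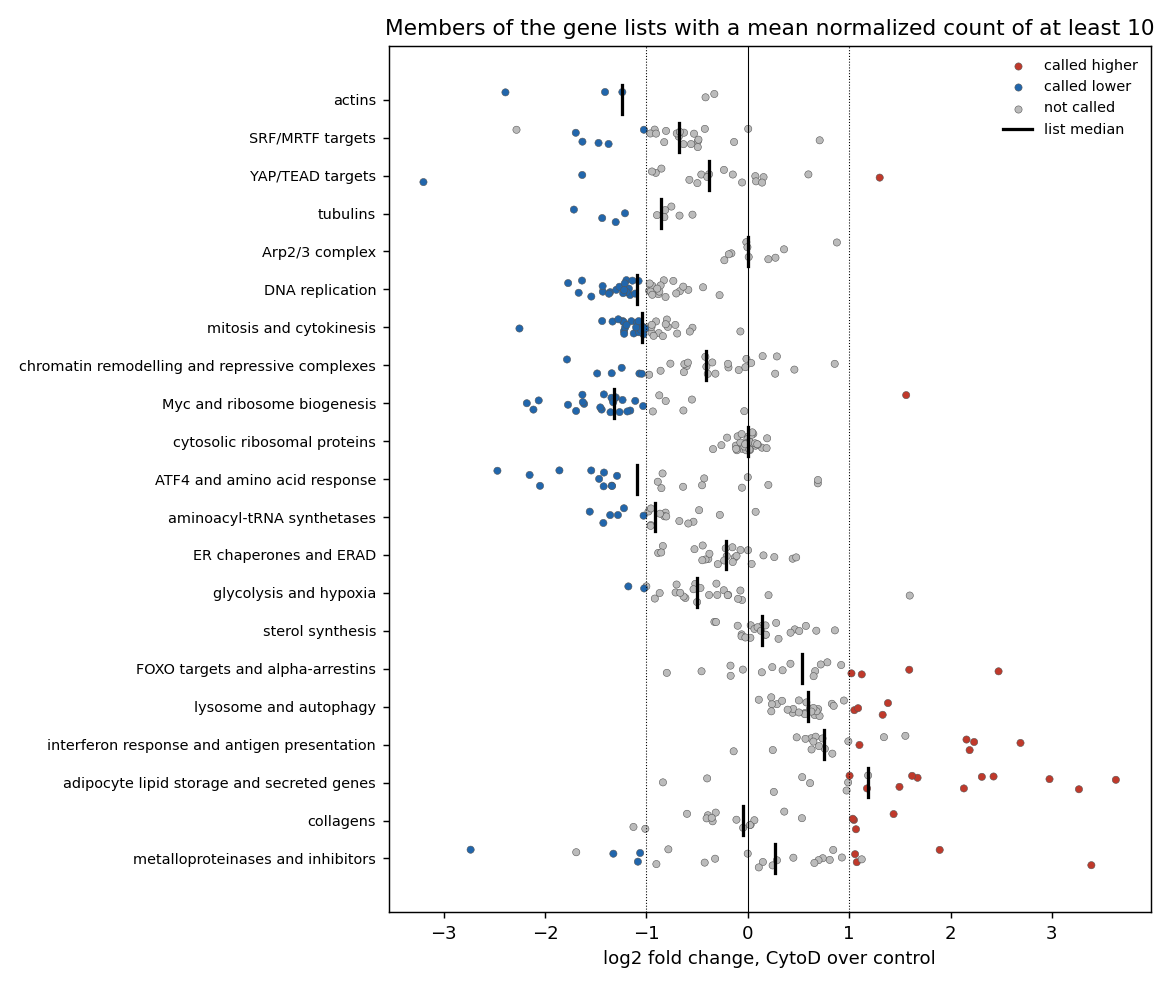
Each row is a gene list and each point 1 expressed member, placed by its log2 fold change of CytoD over control (vertical position within a row is random). Red and blue mark members called higher and lower, black bars the list medians, which run from -1.32 for Myc and ribosome biogenesis to 1.19 for adipocyte genes. Ribosomal proteins gather around 0.

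Many genes of the cell cycle fell. Of 38 DNA replication genes 20 fell, all 38 had a lower mean, 36 had an adjusted p below 0.01, and the median was -1.09. Mcm2, a subunit of the replicative helicase, stood at 4126, 3842 and 4323 in control and 1543, 1477 and 1545 in CytoD (log2 change -1.43, SE 0.09, adjusted p 1.95e-52). Cdc6, which loads the helicase, fell to 0.293 of control, Orc1, of the complex that marks origins, to 0.322, and Mcm10, which starts unwinding, to 0.343. Ccne2, a cyclin of S phase entry, fell to 0.315 (adjusted p 4.16e-31) and overlaps Ints8 on the other strand. Pcna, the sliding clamp, was at -0.96 (adjusted p 6.19e-10), just under the fold change minimum.

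Of 37 mitosis and cytokinesis genes 21 fell, all 37 had a lower mean, and the median was -1.04. Mybl2, a factor of the complex that drives mitotic genes, stood at 1053, 1038 and 1138 in control and 297, 224 and 159 in CytoD. It had the lowest level relative to control in this list, at 0.210 (log2 change -2.25, SE 0.22, adjusted p 1.43e-23). Prc1, which bundles the central spindle, fell by 1.44, Aurka, a spindle kinase, by 1.33, and Ube2c, a ubiquitin enzyme of mitotic exit, by 1.28. Anln, the furrow protein that joins actin and myosin, fell from 8180.2 ± 296 to 3574 ± 241 (adjusted p 1.75e-23), and Ccnb1, the mitotic cyclin, from 4442 ± 298 to 2073 ± 76.3 (adjusted p 1.53e-27).

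A pair of motifs is known from such promoters, that of E2F (TTTCCCGC or TTTGGCGC) and the CHR element of mitotic genes (TTTGAA or TTCGAA), both searched on both strands. A CHR match was found in 24 of the 31 mitosis promoters in the table (83.8% of the list had one), against 19.2% of all 32851 promoters. The E2F letters are in 1.56% of all promoters. Promoters were found for 29 of the 38 replication genes (76.3%) and for 453 of the 592 genes called lower (76.5%), too few to give shares over those sets. Cdc6 (chr11:98907983-98908050, plus strand) and Mcm6 (chr1:128359715-128359845, minus strand) are shown with the E2F letters in capitals, in Cdc6 as the reverse complement, and Cdk1 (chr10:69352913-69353013, minus strand) and Top2a (chr11:99024274-99024398, minus strand) with the CHR in capitals, because these 4 genes fell and hold their motif close to the start. The Top2a promoter holds a further CHR match 23 bases before the start, outside the stretch shown.
Cdc6: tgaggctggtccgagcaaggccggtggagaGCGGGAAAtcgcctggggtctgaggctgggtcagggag
Mcm6: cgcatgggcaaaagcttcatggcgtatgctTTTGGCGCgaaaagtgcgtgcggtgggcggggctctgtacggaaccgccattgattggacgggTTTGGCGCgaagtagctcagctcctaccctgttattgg
Cdk1: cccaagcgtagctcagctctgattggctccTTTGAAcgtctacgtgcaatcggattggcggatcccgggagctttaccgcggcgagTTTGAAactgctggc
Top2a: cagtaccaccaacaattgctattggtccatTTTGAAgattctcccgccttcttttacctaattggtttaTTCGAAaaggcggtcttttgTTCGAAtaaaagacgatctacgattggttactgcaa
Log2 fold changes were -1.77 for Cdc6, -1.17 for Mcm6, -1.09 for Cdk1 and -1.22 for Top2a.

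Of 15 D-type cyclins, their kinases and inhibitors and the pocket proteins 1 rose and 1 fell, 13.3% called beside 9.47% of all expressed genes. Cdkn1a, which encodes p21, stood at 5062, 4964 and 4885 in control and 5025, 4962 and 5284 in CytoD, groups that overlapped (log2 change 0.03, adjusted p 0.754). Cdkn2b, the inhibitor p15, was at 268, 254 and 268 against 579, 566 and 593, and rose 2.20-fold (adjusted p 1.32e-09). Rbl1, the pocket protein p107, fell by 1.05, a call lost without control replicate 2 or CytoD replicate 1 (-0.996 at the smallest). Ccnd1, the cyclin of growth factor response, was at -0.81 (adjusted p 1.10e-16). Of 22 targets of p53, 2 rose. Trp53inp1 stood at 1048, 1178 and 1071 in control and 3923, 3684 and 3727 in CytoD, a 3.44-fold rise (adjusted p 4.88e-27), and Sesn1, a sestrin, rose 2.14-fold, a call lost without control replicate 2 (0.94). Mdm2, which degrades p53, was at -0.34 (adjusted p 0.0114).

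Of 29 chromatin remodelling and repressor genes 6 fell, and the median was -0.41. Hells, a remodeller needed for DNA methylation, stood at 1852, 1979.7 and 2079 in control and 557, 570.1 and 591 in CytoD (log2 change -1.78, SE 0.13, adjusted p 1.70e-39). Its partners in copying methylation, Uhrf1 and Dnmt1, fell to 0.357 and 0.395 of control (adjusted p 1.41e-39 and 1.21e-19). Ezh2, the methyltransferase of Polycomb, fell by 1.04, a call lost without control replicate 3 (-0.99), and Suv39h2, which methylates histone H3 in heterochromatin, fell by 1.24 and overlaps Dclre1c on the other strand. Ruvbl2, an ATPase of several remodellers, fell by 1.07 and is named after its value was seen. Actl6a, whose product Arp4 joins actin in these complexes, was at -0.62 (adjusted p 4.52e-06), below the fold change minimum. Of 16 histone genes with a median of -0.02 H2afx fell, by 1.09 (adjusted p 2.49e-09).

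Of the 47 gene lists, that of Myc and ribosome biogenesis had the largest share of called members. Of its 30 expressed genes 23 fell and 1 rose, which is 80% called, and the median was -1.32. Myc (chr15:61985391-61990374, plus strand), the factor that drives these genes, stood at 1356, 1284 and 1452 in control and 451, 390.1 and 358 in CytoD. All 3 CytoD libraries were below all 3 control libraries, with a log2 change of -1.77 (SE 0.13, adjusted p 5.16e-41). Srm, the spermidine synthase that is a Myc target, was at 2988, 2412 and 2913 against 628, 591 and 617, and fell to 0.221 of control (adjusted p 4.89e-49). Dkc1, which modifies ribosomal RNA, fell to 0.231, though it overlaps Mpp1 on the other strand, and Rrp12, which helps export the subunits, fell to 0.240 (adjusted p 1.56e-64). Ncl, nucleolin, fell from 26174 ± 871 to 12134 ± 554 (adjusted p 3.85e-33). The 1 rise was Mxd4, a repressor that competes with Myc for their shared partner, at 1595, 1667 and 1512 in control and 4675, 4803 and 4625 in CytoD (2.95-fold, adjusted p 9.98e-49), a gene named after its values were seen. The 30 ribosomal protein genes did not follow, since 0 were called by DESeq2 or edgeR, 0 had an unadjusted p below 0.05, and the median was 0.00.

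Genes of amino acid supply fell in part. Of 22 genes of the ATF4 and amino acid response, a program that cells switch on when amino acids run short, 11 fell, the other 11 were not called, and the median was -1.09. Atf4 (chr15:80255184-80257541, plus strand) stood at 5401, 5217 and 5336 in control and 2126, 1983 and 2189.5 in CytoD. Levels within a group were close together and the groups far apart, with a log2 change of -1.34 (SE 0.16, adjusted p 3.19e-16). Mthfd2, a mitochondrial folate enzyme, was at 1358, 1476 and 1438 against 228, 271 and 272, and reached 0.181 of control (adjusted p 9.53e-73). Asns, asparagine synthetase, fell to 0.362 of control, Psat1, of serine synthesis, to 0.343, and Chac1, which breaks down glutathione, to 0.225 (adjusted p 1.73e-40, 6.56e-58 and 4.27e-25). Not every member went down, since Ddit4, an inhibitor of mTOR, was at 0.69 (adjusted p 4.57e-06) and Gdf15, a stress-secreted hormone, at 0.00, neither of them called. Promoters were found for 21 of the 24 listed genes (87.5%), and 5 held the CARE letters TTGCATCA bound by ATF4 dimers (Chac1, Atf3, Nupr1, Pycr1 and Fgf21), against 0.895% of all promoters. Of these 5 Chac1 fell, and its stretch at chr2:119351019-119351086 (plus strand) is shown with the CARE in capitals, starting 193 bases before the start.
Chac1: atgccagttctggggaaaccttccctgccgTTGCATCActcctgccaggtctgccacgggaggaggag

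The enzymes that charge tRNAs went the same way, with 6 of 20 called lower, 18 at an adjusted p below 0.01 and a lower level, and a median of -0.91. Iars, for isoleucine, stood at 2642, 2829.8 and 2894 in control and 879, 968 and 994 in CytoD (0.340 of control, adjusted p 2.40e-19). Vars, Gars and Cars fell by 1.42, 1.36 and 1.28, and Wars and Nars were at -0.87 and -0.82, under the fold change minimum. Of 16 amino acid transporters 5 fell and 2 rose. Slc7a1, the transporter of arginine and lysine, stood at 1817, 1985 and 2075 in control and 379, 399.8 and 395 in CytoD. It fell to 0.1998 of control (adjusted p 6.55e-31), and Slc7a5, the leucine carrier, to 0.147, whose span overlaps Gm20388 on the other strand. Slc38a4 fell by 1.25 (adjusted p 1.38e-05). Slc7a11, the cystine carrier, fell by 1.10 (adjusted p 3.62e-04), a call lost with edgeR and without CytoD replicate 2 (-0.90). Slc43a2, a facilitated carrier of large neutral amino acids, rose 2.35-fold (adjusted p 4.05e-10) and is named after its value was seen, and Slc43a1, its relative, rose 2.36-fold on low counts, a call lost with edgeR, under the replicate block and without control replicate 1 or 3 or CytoD replicate 1 or 3 (0.95 at the smallest).

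None of 24 chaperones and degradation genes of the endoplasmic reticulum was called by DESeq2 or edgeR, 13 had an unadjusted p below 0.05 (2 higher, 11 lower), and the median was -0.21. Hspa5, the master chaperone BiP, stood at 23559.6, 21148 and 20944 in control and 11828, 12125 and 12802 in CytoD, apart but under the fold change minimum (-0.84, adjusted p 5.99e-11), and Xbp1 was at -0.15 (adjusted p 0.282). Of 18 heat shock genes 2 fell. Hsp90aa1, the stress-induced HSP90, fell from 25516 ± 1323 to 11069 ± 263 (adjusted p 6.42e-54) and Hspd1, the mitochondrial chaperonin, fell by 1.18 and overlaps its partner Hspe1 on the other strand.

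In metabolism, glycolytic genes leaned lower and lysosomal genes higher. Of 25 genes of glycolysis and hypoxia, Hk2 and Pfkfb3 fell, 14 were lower at an adjusted p below 0.01, and the median was -0.50. Pfkfb3, which makes the activator of phosphofructokinase, stood at 272, 277 and 274 in control and 121, 120.0 and 123 in CytoD (log2 change -1.18, adjusted p 8.18e-08). Hk2 fell by 1.02 and lost its call without control replicate 2 or CytoD replicate 1 (-0.96). Ldha, lactate dehydrogenase, was at -0.70 (adjusted p 6.56e-09). Of 28 genes of lysosomes and autophagy 4 rose, 21 were higher at an adjusted p below 0.01, all 28 had a higher mean, and the median was 0.60. Ctsk, the collagen-cutting cathepsin K, was at 957, 887 and 908 against 2227, 2386 and 2564. Its CytoD libraries all held more than 2 times the highest control level, with a 2.61-fold rise (adjusted p 9.71e-20). Bnip3l, a receptor for the clearance of mitochondria, rose 2.52-fold, Hexa, a lysosomal hexosaminidase, 2.13-fold, and Ctsf, cathepsin F, 2.07-fold, the last lost without control replicate 2 (0.95). Lamp1, of the lysosomal membrane, was at 0.50 (adjusted p 1.00e-11). The macrophage marker sum given above was also higher in CytoD (150.0 to 204.1 against 277.4 to 289.5, Adgre1 and Ptprc at 0), and its part in the lysosomal levels was not tested.

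Of 18 alpha-arrestins and genes tied to FOXO, a factor active when insulin signalling is low, 4 rose and the median was 0.54. Pik3ip1, an inhibitor of PI3 kinase, stood at 117, 130.5 and 125 in control and 687, 671 and 713 in CytoD. It was 5.55 times control (log2 change 2.47, SE 0.18, adjusted p 2.59e-40). Sesn3, a sestrin that restrains mTOR, rose 3.02-fold and Fbxo32, the ubiquitin ligase of muscle wasting, 2.18-fold (adjusted p 4.94e-15 and 4.68e-15), and Txnip rose 2.03-fold. Irs2 was at -0.17 (adjusted p 0.51). Of 17 metallothioneins and targets of NRF2, the sensor of oxidants, 3 rose and 1 fell. Gstm1, a glutathione transferase, was at 833, 821 and 814 against 2503, 2642 and 2925 (3.27-fold, adjusted p 9.64e-49), Gsta4 and Nqo1 rose 4.73-fold and 2.12-fold, and Txnrd1, thioredoxin reductase, fell to 0.436 of control (adjusted p 9.72e-50). Hmox1 was at 0.10 (adjusted p 0.577).

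For sterol synthesis 0 of 23 genes were called by DESeq2 or edgeR, 8 had an unadjusted p below 0.05 (6 higher, 2 lower), and the median was 0.14. For 27 subunits of oxidative phosphorylation the calls were again 0 by both tools, with 6 at an unadjusted p below 0.05, all higher, and a median of 0.27. Among 14 expressed genes of fatty acid synthesis 0 were called by both tools, with 4 higher and 3 lower at an unadjusted p below 0.05, and Fasn and Scd1 were at -0.14 and 0.44. Mlxipl, the glucose-sensing factor ChREBP, was too low to count as expressed. It was at 0 in all 3 control libraries and at 19.1, 21.3 and 5.15 in CytoD (adjusted p 4.79e-04).

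Most adipocyte genes rose. Of 19 expressed genes of lipid storage and fat hormones 11 rose, 15 were higher at an adjusted p below 0.01, and the median was 1.19. Lpl (chr8:68880491-68907448, plus strand), the lipase that frees fatty acids for uptake, stood at 17211, 16419.9 and 16277 in control and 52021, 53280.4 and 54061 in CytoD. The libraries of each group were tightly grouped, and the level rose 3.19-fold (log2 change 1.67, SE 0.07, adjusted p 4.89e-132). Plin1, the coat of fat droplets, was at 24.2, 18.5 and 9.31 against 137, 108 and 166 (7.87-fold, adjusted p 2.87e-15). Adhfe1, an enzyme of the alcohol dehydrogenase family, rose from 11.5 ± 2.12 to 143 ± 4.06 and Lipe, the hormone-sensitive lipase, from 34.2 ± 5.74 to 149 ± 16.6. Fabp4 was at 805, 869 and 844 against 1631, 1600.1 and 1770.2, just under the fold change minimum (0.99, adjusted p 1.40e-08), and was called without control replicate 2 or CytoD replicate 1 or 2. Leptin (Lep) was at 0 in all 6 libraries, and of the 4 markers of mature adipocytes the other 3 rose, the sum moving from between 60.4 and 120.9 in control to between 666.0 and 859.3. These marker genes are members of the list too, so the sum is the same observation.

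Of 16 regulators of the same lineage Nr1h3 and Cebpa rose and Klf4 fell, which is 18.8% called beside 9.47% of all expressed genes. Nr1h3, the oxysterol receptor LXR-alpha, stood at 305, 241 and 220.4 in control and 726, 801 and 790.3 in CytoD (3.02-fold, adjusted p 2.11e-19). Pparg, the main switch of fat formation, was at 3885, 3692 and 3656 against 4366, 4506 and 4609.9, groups that did not overlap, at 0.26 on the log2 scale (adjusted p 0.0123), which was not called. Cebpa rose 2.04-fold, a call lost without control replicate 2 or CytoD replicate 3 (0.98), and Klf4 fell by 1.01, a call lost without control replicate 2 or 3 or CytoD replicate 2 or 3 (-0.91 at the smallest). Of 18 expressed osteoblast genes 3 were called. Smpd3, a sphingomyelinase of bone matrix, fell from 318 ± 51.7 to 61.8 ± 11.9 (log2 change -2.37, adjusted p 5.54e-23) and overlaps Prmt7 on the other strand, Atf4 is on this list too, and Bglap2, an osteocalcin gene of low level named after its value was seen, rose from 10.1 ± 9.20 to 41.0 ± 4.34 (adjusted p 3.33e-04), a call that edgeR did not make. Bglap, the other osteocalcin gene and too low to count as expressed, was at 0 in all 3 control libraries and at 4.25, 13.6 and 9.27 in CytoD (adjusted p 4.24e-04). Runx2, the master factor of bone, was at 1174, 1517 and 1457 against 1308, 1329 and 1243 (-0.10, adjusted p 0.786), and Alpl, alkaline phosphatase, was low, at 14.9 ± 5.90 and 41.0 ± 6.98 (adjusted p 0.0134).

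Some abundant matrix genes were not called, while particular chains rose. Col1a1, the main collagen of bone and tendon, stood at 58238, 61611 and 60389 in control and 52074, 56544 and 58246 in CytoD, overlapping groups (log2 change -0.11, adjusted p 0.349), and Col1a2, Fn1 and Lox were at 0.03, 0.08 and -0.10, none of them called. Of 19 expressed collagens 4 rose and the median was -0.05. Col6a1, of the beaded filaments around cells, was at 15518, 16538 and 15721 against 31880.4, 34248 and 34023. It rose 2.10-fold and its partner Col6a2 2.07-fold (adjusted p 2.53e-22 and 1.33e-24), while their partner chain Col6a3 was at -0.35 (adjusted p 0.0509). Col18a1, of basement membranes, rose 2.71-fold and overlaps Slc19a1 on the other strand, and Col15a1 rose 2.05-fold, a call lost without control replicate 1 or 2 or CytoD replicate 2 or 3 (0.92 at the smallest).

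Of 24 other matrix genes 2 rose and 2 fell. Tgfbi, an adhesion protein induced by TGF-beta, stood at 537, 512 and 541 in control and 1531, 1514 and 1653 in CytoD (2.95-fold, adjusted p 8.77e-44), and Ccn3, which rose 2.55-fold, moved against its relatives Ccn1 and Ccn2. A further relative, Ccn4, fell from 1879 ± 90.8 to 539.6 ± 78.6 (adjusted p 1.74e-24), and Tnc, tenascin C, fell to 0.377 of control (adjusted p 3.36e-12). Of 26 proteases and inhibitors 4 rose and 4 fell. Mmp11, stromelysin 3, was at 856, 1104 and 1010.0 against 3441, 3878 and 3713 (3.71-fold, adjusted p 1.15e-58), and the collagenase Mmp13 rose 10.5-fold. Timp3, an inhibitor held in the matrix, was at 1133, 1389 and 1319 against 509, 552 and 472, and fell to 0.399 of control (adjusted p 2.54e-13), whereas Timp1 was at -0.90 and not called. Named after their values were seen, Adamts7 and the protease inhibitor Serpine2 rose 2.11-fold and 2.08-fold, and Adamts5 and Adamts6 fell by 1.08 and 1.06. The calls of Serpine2 and Adamts6 were lost without CytoD replicate 3 (0.97 and -0.98) and that of Adamts7 without control replicate 1 (0.99).

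Signals that marrow stroma sends to other cells changed. Cxcl12 (chr6:117168535-117181367, plus strand), the chemokine that keeps blood-forming cells in the marrow, stood at 34247, 35896 and 33409 in control and 105514, 108013 and 109474 in CytoD. Every CytoD library held about 3 times the control level, a log2 change of 1.64 (SE 0.07, adjusted p 3.13e-109) and the largest gain in counts of the comparison among called genes. Kitl, the stem cell factor, was at 2425, 2335 and 2309 against 6207, 6152 and 6082 (2.61-fold, adjusted p 1.47e-22). Inflammatory chemokines were mixed. Ccl2, which draws monocytes, was at 328, 283 and 337 against 109, 111 and 104 and fell to 0.343 of control (adjusted p 1.11e-14), Ccl7 fell by 1.30 (adjusted p 3.28e-15), and Cxcl1, which draws neutrophils, rose 4.23-fold from a low level (adjusted p 2.75e-07). In all, 5 of 9 expressed chemokines were called, 2 higher and 3 lower, the last being Ccl9, at -1.001, named after its value was seen, a call lost with edgeR and without control replicate 1 or 2 or CytoD replicate 2 or 3 (-0.97 to -0.999).

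Of 15 interleukin genes and relatives 1 rose and 2 fell. Ptgs2, the inducible cyclooxygenase, stood at 568, 533 and 588 in control and 84.0, 90.0 and 90.7 in CytoD. It reached 0.157 of control without overlap (log2 change -2.67, SE 0.15, adjusted p 5.18e-65). Il1rl1, the receptor of interleukin 33, fell from 730.3, 596 and 704 to 54.2, 134 and 117 (adjusted p 5.36e-21), with CytoD replicate 1 lowest. Il1rn, which blocks the interleukin 1 receptor, was at 1568, 1248 and 1378 against 2953, 3359 and 3202 (2.27-fold, adjusted p 3.00e-06), and Il6 stayed below 10 counts in every library. Of 8 expressed complement genes 3 rose. C1s1 and C1ra, the proteases of the first component, rose 3.23-fold and 2.05-fold.

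Interferon and antigen presentation genes leaned higher, with 5 of 20 called, 14 higher at an adjusted p below 0.01 and a median of 0.75. Over all 13717 tested genes, 1871 were higher at that adjusted p. Psmb8, a subunit of the immunoproteasome, stood at 29.0, 27.3 and 16.6 in control and 99.9, 105 and 122 in CytoD (4.46-fold, adjusted p 8.39e-11). Psmb9, its partner, rose 4.56-fold and overlaps Tap1 on the other strand. B2m, the light chain of class I molecules, was at 9043, 8601 and 8347 against 13329.5, 13558 and 14470.5, 0.67 on the log2 scale (adjusted p 2.53e-08), and was not called. Ifit3 rose 2.15-fold, a call lost without CytoD replicate 1 (0.93), and Irf7 and Gbp2, low genes named after their values were seen, rose from 10.8 ± 3.63 to 51.0 ± 11.1 and from 13.2 ± 3.83 to 85.1 ± 9.65. The part of the macrophage markers, whose sum was higher in CytoD while Adgre1 and Ptprc were at 0, was not tested.

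Among growth factor pathways, TGF-beta and BMP genes were called in both directions, 4 higher and 3 lower of 30 with a median of -0.01. Inhba, which encodes activin A, stood at 2305, 2412 and 2367 in control and 574, 579.8 and 533 in CytoD. It fell to 0.238 of control with no overlap (log2 change -2.07, SE 0.17, adjusted p 1.02e-30). Ltbp2, a protein of elastic fibers, was at 127, 151 and 147 against 477, 484 and 368 (3.13-fold, adjusted p 2.69e-15), while its relative Ltbp1, which stores latent TGF-beta, fell by 1.12. Chrd, the BMP antagonist chordin, and Id3, a target of BMP signals, rose 2.68-fold and 2.19-fold, Tgfb1 was at 0.87 (adjusted p 1.06e-10), and Smad7 at -0.57 (adjusted p 4.62e-07). Of 27 Wnt pathway genes Rspo3, a ligand that strengthens Wnt signals, rose from 18.4, 17.5 and 18.6 to 94.6, 118 and 102 (5.78-fold, adjusted p 3.78e-13). Axin2, a common readout of Wnt activity, stayed below 4 counts in every library.

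Of 13 genes of the insulin-like growth factor axis 3 rose. Igf2, a growth factor of fetal tissue, stood at 541, 556 and 517 in control and 1179.7, 1121 and 1109 in CytoD (2.11-fold, adjusted p 2.22e-18), and Igf1 was at -0.09 (adjusted p 0.83). Stc1, stanniocalcin, rose from 18.5 ± 2.61 to 81.4 ± 3.39 and is named after its value was seen, and Pappa2, which frees growth factors from their binders, rose 2.41-fold, a call lost with edgeR and without any 1 of the libraries other than control replicate 3 (log2 changes of 1.14 to 1.38 without them). Rgs2, which dampens Gq signals, was the 1 called member of 9 regulators of G protein signalling, at 12.6, 24.3 and 14.5 against 267, 255 and 287, and Rgs16 was at 0.45 (adjusted p 0.204). Of 25 immediate early genes Jun, Dusp5 and Phlda1 fell, to be read beside the 9.47% of all expressed genes that were called (4.53% lower). Dusp5, a phosphatase of nuclear ERK, stood at 876, 818 and 819 against 254, 304 and 314 (log2 change -1.53, adjusted p 3.52e-32), Jun fell by 1.15, and Egr1 was at -0.39 (adjusted p 3.41e-05). Klf4 was the 1 called member of 24 Kruppel-like and clock genes, and Per1 was at 0.65 (adjusted p 0.0181).

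Surface markers of MSCs shifted in 3 of 13 expressed members. Cd44, the hyaluronan receptor, stood at 2835, 2874 and 2792 in control and 1372, 1300.0 and 1423 in CytoD, and fell to 0.482 of control (adjusted p 5.59e-18). Nes, nestin, fell from 249 ± 8.21 to 80.2 ± 1.08 (adjusted p 9.98e-18), and Kitl rose as given above. Ly6a, or Sca-1, was at 0.35 (adjusted p 0.0357).

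**Figure D3:**
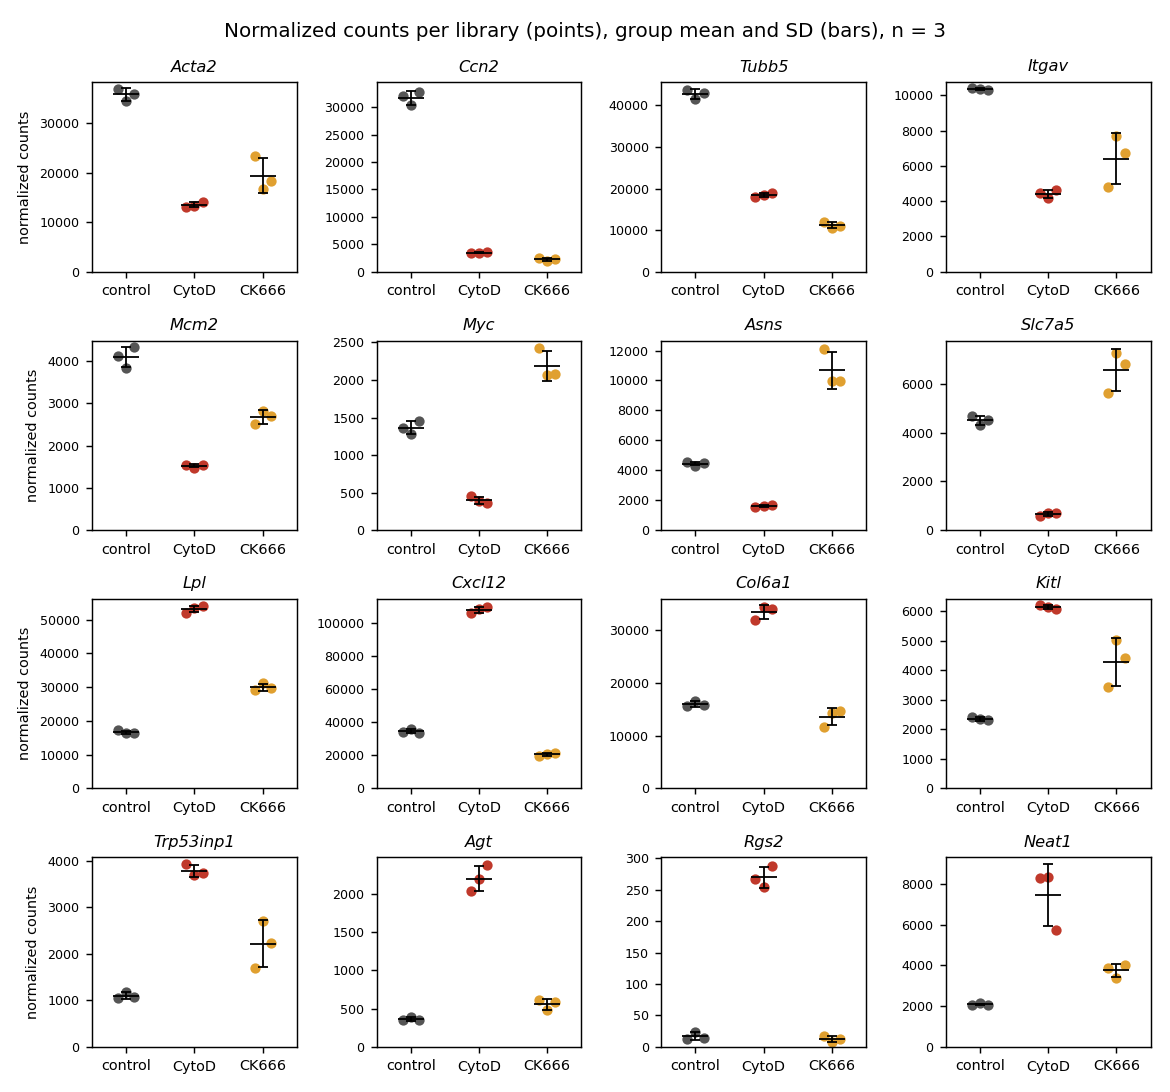
Normalized counts of 16 genes in the control, CytoD and CK666 libraries, each axis starting at 0. Points are the 3 libraries of a group and bars the group mean with its SD. In all 16 panels the CytoD points lie apart from the control points, and Neat1 shows the widest spread of the CytoD libraries relative to their mean.

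Several of the largest changes belong to none of these lists. Agt, angiotensinogen, stood at 349, 392.4 and 353 in control and 2034, 2186 and 2371 in CytoD. It rose 6.02-fold with no overlap (log2 change 2.59, SE 0.13, adjusted p 1.07e-81). Kng1, kininogen, another precursor of a vessel-acting peptide, was at 35.8, 28.2 and 22.8 against 173, 185 and 199.9 (6.41-fold). Bmf, which promotes cell death and binds the myosin motor complex, stood at 43.5, 51.6 and 66.2 against 326, 323 and 376 (6.37-fold, adjusted p 5.03e-26). Pgm5, an adhesion protein related to phosphoglucomutase, rose 6.38-fold. Car3, carbonic anhydrase 3 of fat and muscle, rose from 35.9 ± 12.9 to 257 ± 5.52, Gstt1, a glutathione transferase, from 27.0 ± 6.93 to 180.3 ± 22.04, Islr, a marker of stromal cells also called meflin, from 40.0 ± 13.0 to 262 ± 25.5, and Lrrc17, a secreted leucine-rich repeat protein, from 16.6 ± 4.35 to 186 ± 18.3 (adjusted p 1.05e-23, 8.89e-21, 5.01e-25 and 4.88e-17).

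Among the largest falls, Krt80, a keratin, stood at 229, 244 and 218 in control and 37.2, 36.8 and 28.9 in CytoD. It reached 0.149 of control (log2 change -2.75, SE 0.26, adjusted p 1.01e-24). Hbegf, a ligand of the EGF receptor, was at 354, 344 and 340.5 against 88.2, 55.2 and 62.9, at 0.198 of control (adjusted p 8.93e-27). Fgd3, an exchange factor for the GTPase Cdc42, fell from 1093 ± 63.3 to 206 ± 33.2 (adjusted p 4.14e-29).

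Of the long noncoding RNAs, Neat1, the scaffold of nuclear paraspeckles, stood at 2070.0, 2132 and 2049 in control and 8309.9, 8317 and 5711 in CytoD, with CytoD replicate 3 lowest but still above every control library (3.57-fold, adjusted p 1.51e-31). Snhg1, a host of small nucleolar RNAs, fell from 785 ± 30.7 to 372 ± 40.1 (adjusted p 3.58e-08). Snhg5, a second host, fell by 1.01, a call lost without control replicate 1 or 3 or CytoD replicate 1 or 2 (-0.93 at the smallest). Zbtb11os1 rose 2.41-fold, and its span overlaps Zbtb11 on the other strand. Whether their exons overlap was not checked, and unstranded reads from any shared exons cannot be told apart. Proteins were encoded by 92.1% of the genes that rose, 96.4% of those that fell and 91.4% of all expressed genes.

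CK666 blocks the branching of filaments, and the same control libraries serve both drugs, so their fold changes over control are not independent. The test of the difference is the direct contrast of CytoD with CK666, in which 1778 of 15038 tested genes were called, 11.8%, with 6.74% higher and 5.08% lower in CytoD. Of the 22 members of the ATF4 list 19 were lower in CytoD than in CK666, and the list median was -1.09 for CytoD over control and 1.35 for CK666 over control. Asns stood at 1531, 1626 and 1665 in CytoD and 12129, 9969 and 9946 in CK666, with 4539.5, 4309 and 4471 in control between them (CytoD against CK666 -2.73, adjusted p 4.20e-142). Chac1 was at 45.3 ± 7.17 in CytoD and 1628 ± 169 in CK666 (-5.16, adjusted p 4.47e-155). Of 20 tRNA synthetases 15 were lower in CytoD, and of 24 ER chaperones 4, with Hspa5 at 12252 ± 499 against 56939 ± 8467 (adjusted p 3.17e-73).

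The list of Myc and ribosome biogenesis also differed, with 22 of 30 genes lower and 1 higher in CytoD than in CK666, and medians over control of -1.32 and 0.10. Myc was at 451, 390.1 and 358 in CytoD and 2419.8, 2062 and 2085 in CK666, below and above the control range (adjusted p 6.18e-80). Ptgs2 was at 88.2 ± 3.70 in CytoD and 1208 ± 128 in CK666, with control between them (adjusted p 1.16e-134). The opposite order held for sterol synthesis, where 19 of 23 genes were higher in CytoD than in CK666 while the medians over control were 0.14 and -1.35. In the direct contrast 4 of 9 chemokines and 6 of 24 matrix genes were higher in CytoD, and of 19 collagens 5 were higher and 1 lower. Cxcl12 was at 107667 ± 2002 in CytoD against 20557 ± 937 in CK666, on either side of control, Col6a1 at 33384 ± 1307 against 13562 ± 1610.3, and Col1a1 at 55622 ± 3187 against 21569 ± 1639 (adjusted p 2.71e-232, 5.62e-33 and 1.77e-49).

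Of 38 replication genes 1 was higher and 1 lower in CytoD than in CK666, with medians over control of -1.09 and -1.10. Over the 37 mitosis genes the median of the direct contrast was 0.18, with medians over control of -1.04 and -1.15. Ccn2 stood at 3456 ± 117 in CytoD and 2259 ± 223 in CK666, a difference of 0.61 (adjusted p 3.72e-09) under the fold change minimum, and Acta2 at 13524 ± 524 and 19450.2 ± 3502 (-0.52, adjusted p 2.41e-04), also uncalled. Of 10 tubulins 1 was called, Tuba1a, lower with CK666 than with CytoD, at 12866 ± 656 in CytoD and 2135 ± 178 in CK666 (2.59, adjusted p 6.74e-143), while the medians over control were -0.86 and -1.71. A difference under the minimum does not show that the drugs act alike.

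**Figure D4:**
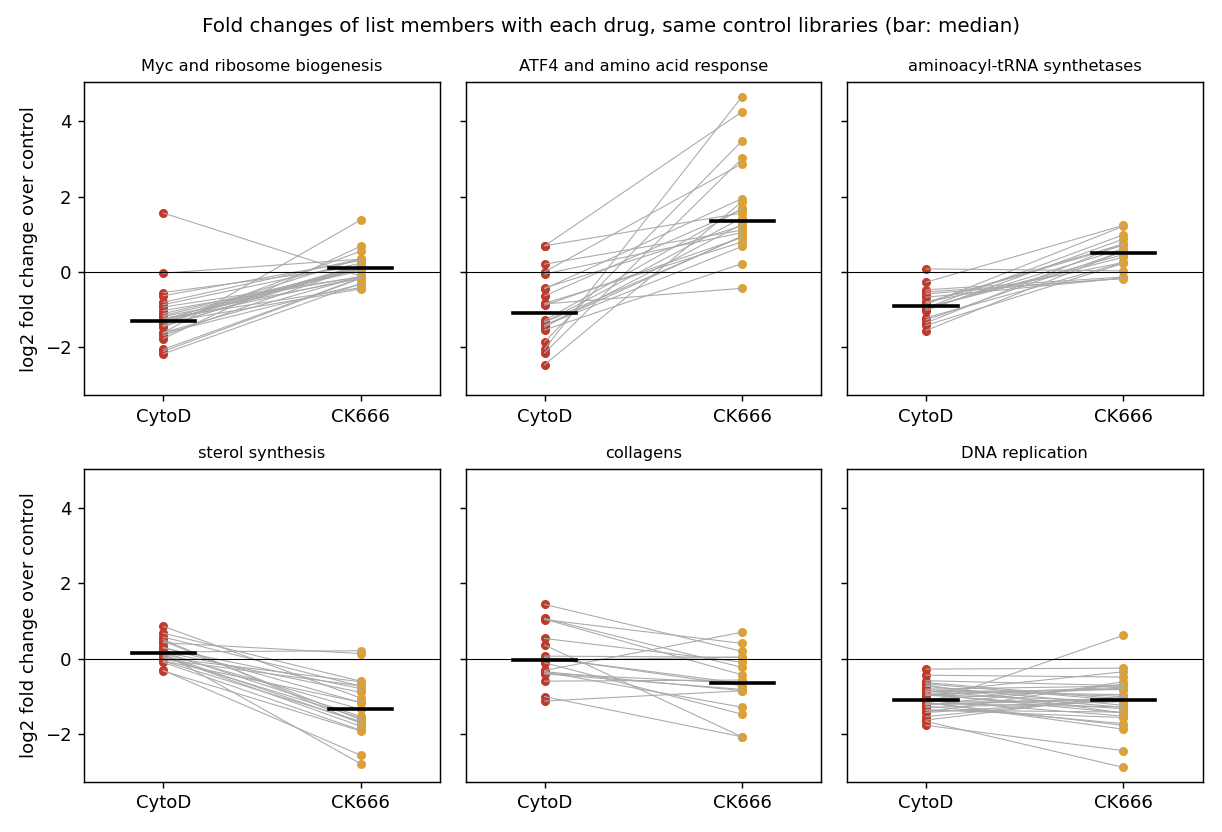
Log2 fold changes over the same control libraries for the expressed members of 6 lists, with CytoD on the left and CK666 on the right of each panel and 1 line per gene. Black bars are the medians, at -1.09 and 1.35 for the ATF4 list, 0.14 and -1.35 for sterol synthesis and -1.09 and -1.10 for DNA replication.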

How the data were processed

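RNA-seq libraries of 3 control, 3 CytoD and 3 CK666 preparations were used, with library totals of 18075621 to 21449103. The deposited values were estimated counts per gene that the authors made with Salmon 1.2.1 from unstranded paired-end reads, on GENCODE vM25 of GRCm38. How transcripts were added up to genes is not given in the sources used here. Values were rounded to whole numbers and tested with DESeq2 1.42.0 (R 4.3.3, Wald test, median-of-ratios size factors, no covariate), following the study's methods, in 1 fit of these 9 libraries. A call needed an absolute log2 fold change over 1 and an adjusted p below 0.01. Expressed genes averaged 10 or more normalized counts across the 6 control and CytoD libraries. Groups came from the labels.

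The members of the gene lists, the tests and the named genes were chosen with earlier results of these data known. Named were the 12 largest rises and falls with a mean of at least 100, non-overlapping groups and a descriptive symbol, key members of each list with up to 4 called members of a mean of at least 50, the 5 called genes with the largest difference in counts, Actl6a, and up to 4 called long noncoding RNAs. Some genes that this rule takes are not reported here. Others, such as Acta1, Mylk, Cdk1, Top2a, Mcm6, Lipe, Col6a3, Ltbp1, Ddit4, Gdf15 and the genes said to be so in the text, were named after their values were seen. Gene spans came from the GRCm38 annotation and promoters from RefSeq (GRCm38.p6).

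The alternatives were TMM size factors, a count filter, edgeR 4.0.16, the 6 libraries alone, a replicate block, other call rules and leaving out each library. The DESeq2 step was tested on simulated data.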

Additional observations from a re-analysis of the deposited data

How the results depend on the processing

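The number of genes called for CytoD against control, 1251 (659 higher, 592 lower), depended most on the fold change rule. With no fold change minimum 4067 genes passed (1871 higher, 2196 lower), and in a test against a log2 fold change of 1 there were 147 (74 higher, 73 lower). It was 1260 with TMM size factors, 1270 when 3 libraries had to reach a count of 10, 1100 with edgeR (1092 of them shared), 1279 with the 6 libraries alone and 1490 at an adjusted p below 0.05. Leaving out each library in turn gave 1104 to 1190 calls (542 to 613 higher, 536 to 582 lower) for control and 1590 to 1819 for the contrast with CK666. Replicate numbers did not pair the samples, since control and CytoD libraries of the same number had deviations from their group means that correlated at -0.366, -0.0226 and 0.0539. With the replicate number as a block there were 1172 calls (601 higher, 571 lower) against control and 1687 against CK666.

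None of the 1251 called genes changed sign in any of these alternatives. Of the 144 called genes that were named by the rule above, 129 were called whichever library was left out and 141 by edgeR. Genes named after their values were seen are outside these counts, and some lost their calls, such as Acta1, Bglap2 and Ccl9 with edgeR. Of 517 list medians, 45 moved by more than the spread between replicates. Signs turned only for named genes that were not called. With 1 library left out at a time, the Cebpb log2 fold change ran from -0.197 to 0.0572 (above 0 without control replicate 1 or CytoD replicate 1), the Col1a2 log2 fold change from -0.000947 to 0.0645 (below 0 without CytoD replicate 3) and the Rps6 log2 fold change from -0.00843 to 0.0662 (below 0 without control replicate 2). The Igf1 log2 fold change ran from -0.249 to 0.0391 (above 0 without control replicate 2 or CytoD replicate 2), the Il6 log2 fold change from -1.43 to 0.0737 (above 0 without control replicate 2 or CytoD replicate 3) and the Igfbp5 log2 fold change from -0.666 to 1.70 (below 0 without control or CytoD replicate 2 or 3). The cause of these changes was not tested. Il6 and Igfbp5 received no adjusted p, and 1 line of cells limits all p-values to the spread between its preparations.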
